A study of Mus musculus with 12 samples.

Results

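The genes described here encode the route by which a T cell takes up glucose, splits it into pyruvate, exports lactate, diverts sugar phosphate into the pentose phosphate pathway and burns acetyl groups in the mitochondrial TCA cycle. The list holds 40 genes named by function, and 37 of them had at least 1 probe set carrying that gene symbol alone on the Affymetrix mouse genome array, out of 18194 genes on the array that can be named in this way. Gpi1, Eno1 and G6pdx were not analysed here. The 37 genes had 87 probe sets between them. Where a gene had several, the one that was brightest on average across the 12 arrays stood for it, and all levels below are log2 RMA signals. They can be compared between arrays for a given probe set, but not between probe sets.

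All 12 samples were T cells from the spleens of female C57BL/6 mice, given in the labels as 8 to 12 weeks old. The NKT-like cells (n = 5) were CD8+ cells expanded on beads coated with anti-CD3 and anti-CD28 in high-dose IL-2. The cCD4 cells (n = 3) were sorted CD4+ cells expanded in the same way. The activated cells (n = 2) were CD8+ cells stimulated with a low dose of the 2 antibodies in soluble form, and the naive cells (n = 2) were CD8+ cells taken fresh by negative selection. No fresh CD4+ cells were arrayed, so that in the comparison of cCD4 with naive cells the lineage and the culture cannot be told apart. The study describes the expanded cultures as independent; where samples did not come from separate animals, the spread between them may be technical.

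Resting T cells run mainly on mitochondrial oxidation of fuels. After activation they are known to raise glucose uptake and to send much of the resulting pyruvate to lactate even with oxygen at hand, a state called aerobic glycolysis, which yields building blocks for growth as well as ATP. Transcription factors of the MYC and HIF families are textbook activators of glucose transporter and glycolytic enzyme genes, and IL-2 signaling is known to sustain them in T cells.

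The labels were checked against lineage markers. Cd8a ran from 9.94 to 11.57 in NKT-like cells, from 6.42 to 6.92 in cCD4 cells, from 10.05 to 10.56 in activated cells and from 11.06 to 11.72 in naive cells. Cd4 was at 9.82 to 10.10 in cCD4 cells and between 6.55 and 7.20 on the other arrays. The naive arrays stood apart in markers of B cells and red cell precursors. The summed signal of 7 B cell genes was 8.93 to 9.20 in NKT-like, 8.89 to 9.18 in cCD4, 9.43 to 9.51 in activated and 13.08 to 13.20 in naive cells, led by Jchain, an immunoglobulin joining chain of plasma cells. That of 8 red cell precursor genes was 9.33 to 9.51, 9.33 to 9.56, 9.53 to 9.79 and 12.53 to 13.05 in the same order, led by Car1 and Klf1. The sum of 8 myeloid genes was 9.31 to 9.54 in NKT-like, 9.10 to 9.5 in cCD4, 9.31 to 9.84 in activated and 9.72 to 9.94 in naive cells. Relative to naive cells, 6 of the 7 B cell genes (Cd79a, Cd79b, Ms4a1, Blk, Cd22 and Jchain) were lower in NKT-like, 5 in cCD4 and 3 in activated cells. So were 6, 5 and 5 of the 8 red cell precursor genes (Klf1, Ermap, Car1, Tal1, Epor and, in NKT-like cells, Slc4a1), and 3, 2 and 0 of the 8 myeloid genes (Lyz2, S100a8 and, in NKT-like cells, Mpo). In contrast, the B cell factor Pax5, the heme enzyme Alas2 and the globin gene Hba-a1 were at 6.41 to 6.43, 5.38 to 5.56 and 5.41 to 5.50 in naive cells and differed little between groups. Of the 8 myeloid genes, 5 did not pass between NKT-like and naive cells. Among these, Cd14 ran the other way, at 7.05 to 7.37 in NKT-like against 6.70 and 6.95 in naive cells. Itgam had means of 4.86 in NKT-like and 4.89 in naive cells. The gap between the 3′ and 5′ control probe sets of Actb was -0.01 to 0.62 in the stimulated cells, 0.33 in naive replicate 1 and 1.35 in naive replicate 2. That of Gapdh was 0.12 in NKT-like replicate 5, 1.28 to 1.73 on the other stimulated arrays, and 2.01 and 2.21 in naive cells. The summed signal of 6 proliferation genes was 12.94 to 13.85 in NKT-like, 14.39 to 14.53 in cCD4, 14.13 to 14.48 in activated and 12.50 to 12.53 in naive cells. Top2a, Plk1, Rrm2, Tk1 and Pcna were higher than in naive cells in all 3 populations and Mki67 in cCD4 cells. The summed signal of 5 T cell genes was 13.03 to 13.64 in NKT-like, 13.73 to 13.88 in cCD4, 12.50 to 13.00 in activated and 12.84 to 13.54 in naive cells. Among them Cd5 was lower in NKT-like cells than in naive (log2 -2.04; q = 0.0091), cCD4 (log2 -3.30) and activated cells (log2 -3.05). The other 4 did not pass between NKT-like and naive cells, and 1 T cell gene was called higher in NKT-like than in activated cells. The part of these features in the results below was not tested, and a lower level per cell cannot be told apart from fewer cells of a type.

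Genes of upper and lower glycolysis made up a large part of those that were higher in the 3 stimulated populations than in naive cells. In each population 5 of 8 genes of upper and 4 of 5 of lower glycolysis were higher. Of 9 TCA genes 1 was higher in NKT-like, 4 in cCD4 and 1 in activated cells. The 9 include the NADP isocitrate dehydrogenases and cytosolic Mdh1, and the 4 in cCD4 cells include the cytosolic Idh1 and Mdh1. These counts rest on the brightest probe sets. The TCA genes Cs and Mdh2 passed in all 3 comparisons on other probe sets. Expression was compared with limma in a fit over all 12 arrays, and a gene was called when its Storey q-value, computed over all probe sets tested, was 0.01 or less. In NKT-like cells 15 of the 37 genes were higher and 2 were lower than in naive cells, against 10.7% of all genes higher and 6.86% lower. In cCD4 cells 18 were higher and 2 lower, against 11.6% and 5.64% of all genes. In activated cells 16 were higher and none was lower, against 4.44% and 2.79% of all genes, with 2 lower at an unadjusted p under 0.05. The median log2 difference of the 37 genes was 0.70 in NKT-like, 0.91 in cCD4 and 1.00 in activated cells, beside -0.05 over all genes in each comparison. Every NKT-like array lay above both naive arrays in 22 of the 37 genes and below both in 2, against 20.9% and 28.2% of all genes. For cCD4 arrays these numbers were 26 and 2, against 25.6% and 28.2%, and for activated arrays 27 and 2, against 21.1% and 24.8%. These comparisons share the same 2 naive arrays. The genes higher in all 3 numbered 14, namely Slc2a1, Slc2a3, Hk2, Pfkp, Aldoa, Tpi1, Gapdh, Pgk1, Pgam1, Pkm, Ldha, Pgd, Tkt and Fh1, and 15 passed in none of them.

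The naive arrays set how firmly these counts stand. Without naive replicate 2 the numbers of higher genes were 7 in NKT-like, 7 in cCD4 and 6 in activated cells, and without activated replicate 1 the number in activated cells was also 6. The calls held with either naive array left out were Hk2, Tpi1, Gapdh, Pgam1 and Ldha in all 3 comparisons, Pkm in NKT-like and cCD4 cells, and Pgk1 in cCD4 and activated cells. In naive replicate 2 the signals of Pfkl, Gapdh, Pkm and Ogdh were 1.39, 1.30, 1.41 and 1.41 lower on the log2 scale than in naive replicate 1. No gene of the list was more than 1 log2 unit higher in naive replicate 2.

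**Figure D1:**
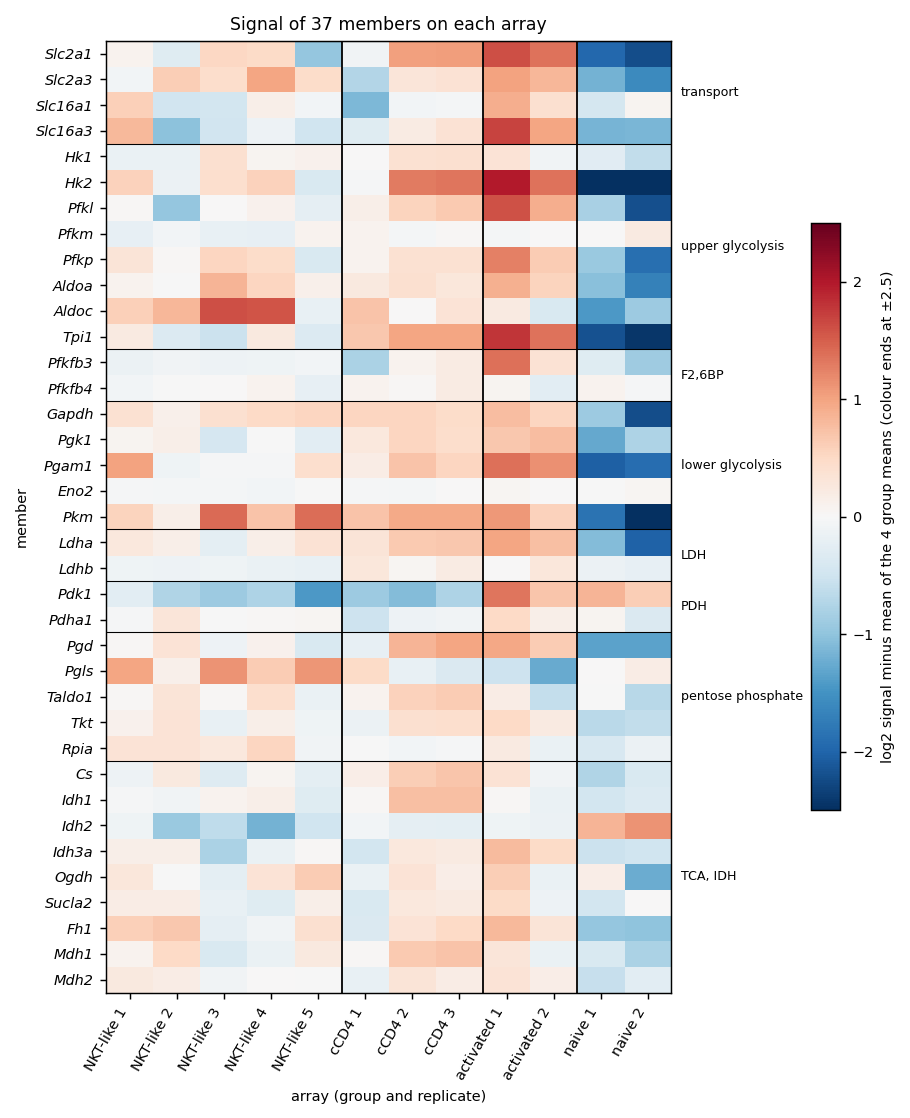
Signal of the 37 measured genes (rows, grouped by role) on the 12 arrays (columns), as log2 RMA signal minus the mean of the 4 group means for that gene, with red above and blue below it. The rows of Hk2, Tpi1, Pgam1 and Pkm are blue in both naive arrays and red in the activated arrays, Pdk1 is blue in the NKT-like and cCD4 arrays, and Idh2 is red in the naive arrays.

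Proximal promoters are shown for 5 genes that were higher in all 3 comparisons and for Pdk1, which was lower in the expanded cells, because members of this pathway are known targets of HIF and MYC. The printed lines do not stand for the list. All 5 higher genes shown hold a match, for Pkm at the printed start site only. Tpi1, Pfkp, Pgd, Tkt and Fh1, which were also higher in all 3, had no ACGTG or CACGT and are not shown. A link between matches and direction of change was not tested. Each line gives the 250 bases before the RefSeq start site in GRCm38.p6, read 5′ to 3′ on the gene's strand. Every ACGTG, a form of the core of the HIF response element, is in capitals, on either strand and so also as CACGT. This includes where it lies inside CACGTG, the palindromic E-box bound by MYC. The core form GCGTG was not searched or marked, so a line without capitals, such as that of Pdk1, can hold it.
Slc2a1, chr4:119108495-119108744, plus strand: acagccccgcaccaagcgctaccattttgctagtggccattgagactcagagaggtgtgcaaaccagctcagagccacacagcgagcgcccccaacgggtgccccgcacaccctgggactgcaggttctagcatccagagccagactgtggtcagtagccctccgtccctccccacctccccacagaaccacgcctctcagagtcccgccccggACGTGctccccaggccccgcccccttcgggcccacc
Hk2, chr6:82774455-82774704, minus strand: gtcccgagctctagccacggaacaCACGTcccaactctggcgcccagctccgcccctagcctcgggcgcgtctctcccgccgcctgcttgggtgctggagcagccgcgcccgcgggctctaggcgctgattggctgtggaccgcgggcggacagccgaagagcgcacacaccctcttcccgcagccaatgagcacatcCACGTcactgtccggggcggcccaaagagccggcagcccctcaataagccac
Pgk1, chrX:106186850-106187099, plus strand: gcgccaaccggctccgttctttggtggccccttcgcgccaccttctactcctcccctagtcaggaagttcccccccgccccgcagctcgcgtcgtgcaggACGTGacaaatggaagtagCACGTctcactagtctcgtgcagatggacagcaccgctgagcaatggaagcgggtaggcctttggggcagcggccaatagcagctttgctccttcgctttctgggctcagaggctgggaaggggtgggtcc
Ldha, chr7:46845554-46845803, plus strand: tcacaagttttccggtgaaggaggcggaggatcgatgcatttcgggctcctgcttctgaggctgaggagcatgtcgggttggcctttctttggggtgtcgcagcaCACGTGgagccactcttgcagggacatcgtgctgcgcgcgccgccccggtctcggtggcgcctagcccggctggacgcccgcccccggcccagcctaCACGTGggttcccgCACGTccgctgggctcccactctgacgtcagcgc
Pkm, chr9:59656977-59657226, plus strand, the second of 2 start sites: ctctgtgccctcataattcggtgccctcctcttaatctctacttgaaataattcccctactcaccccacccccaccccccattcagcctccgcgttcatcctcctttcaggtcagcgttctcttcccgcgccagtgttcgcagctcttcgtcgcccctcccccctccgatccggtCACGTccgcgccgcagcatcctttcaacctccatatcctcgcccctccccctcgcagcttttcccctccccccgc
Pdk1, chr2:71872974-71873223, plus strand, the first of 2 start sites: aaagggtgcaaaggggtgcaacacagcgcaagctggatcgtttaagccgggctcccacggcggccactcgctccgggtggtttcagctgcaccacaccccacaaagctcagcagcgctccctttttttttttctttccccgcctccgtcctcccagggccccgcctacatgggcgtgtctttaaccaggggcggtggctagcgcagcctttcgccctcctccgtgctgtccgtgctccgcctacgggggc
In windows of 300 bases around the start site, ACGTG or CACGT occurred in 17 of the 38 listed genes that have such a window (44.7%), against 21.8% of 27025 genes. It occurred in 8 of 13 genes that were higher in all 3 comparisons and in 8 of 22 other measured genes. CACGTG occurred in 5 of the 38 genes (13.2%), against 8.09% of all genes, with 1 of the 13 genes higher in all 3 comparisons and 4 of the 22 others. Windows of listed genes had a GC content of 60.2%, against 53.8% for all windows, and the shares were not matched for it. A match is a run of letters and not a binding site.

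Both glucose transporters were higher in every stimulated population on their brightest probe sets. Of the 2 lactate exporters Slc16a3 passed in activated cells alone. Slc2a1 encodes GLUT1, the main glucose transporter of activated T cells. Its signals were 9.66, 9.28, 10.09, 10.05 and 8.61 in NKT-like cells, 9.48, 10.60 and 10.62 in cCD4 cells, 11.18 and 10.93 in activated cells, and 7.61 and 7.35 in naive cells. Every stimulated array lay above both naive arrays. The difference from naive cells was 4.18-fold in NKT-like (log2 2.06 ± 0.40, SE; q = 0.0018), 6.76-fold in cCD4 (q = 0.00061) and 11.9-fold in activated cells (q = 0.00081). The other 2 probe sets of Slc2a1 passed in the same direction in all 3 comparisons. The 3 q-values were 0.043, 0.013 and 0.012 without naive replicate 2, and without naive replicate 1 that of NKT-like cells was 0.014.

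Slc2a3 encodes GLUT3, a transporter with high affinity for glucose. It read 10.78, 11.46, 11.29, 11.84 and 11.32 in NKT-like, 10.12, 11.16 and 11.21 in cCD4, 11.85 and 11.69 in activated, and 9.67 and 9.27 in naive cells, so that again no stimulated array reached down to the naive ones. It was 3.64-fold higher in NKT-like (q = 0.0008), 2.56-fold in cCD4 (q = 0.0066) and 4.92-fold in activated cells (q = 0.0022). With naive replicate 2 left out these q-values became 0.028, 0.086 and 0.030. The cCD4 call was also lost without naive replicate 1 (q = 0.021) or cCD4 replicates 2 or 3 (q = 0.032 and 0.030), and the activated call without activated replicate 1 (q = 0.020).

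The lactate exporters parted. Slc16a3 encodes MCT4, the exporter typical of strongly glycolytic cells. Its signals were 7.80, 5.96, 6.52, 6.86 and 6.49 in NKT-like, 6.68, 7.19 and 7.35 in cCD4, 8.67 and 7.98 in activated, and 5.83 and 5.84 in naive cells. Only in activated cells did it pass (5.61-fold, log2 2.49 ± 0.47; q = 0.0047), and the call was lost without activated replicate 1 or either naive array (q = 0.043, 0.027 and 0.042). The difference was 0.89 ± 0.39 in NKT-like (q = 0.051) and 1.23 ± 0.43 in cCD4 cells (q = 0.025). Slc16a1, which encodes the more widely expressed carrier MCT1, spanned 9.20 to 11.24 over all arrays with the naive arrays at 9.89 and 10.39 inside that range, and passed in no comparison.

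The upper part of glycolysis, from glucose to triose phosphates, had 5 of 8 measured genes higher in each comparison with naive cells. Hk2 encodes the inducible hexokinase, which traps glucose as glucose 6-phosphate. It read 9.49, 8.77, 9.34, 9.5 and 8.54 in NKT-like, 8.88, 10.22 and 10.26 in cCD4, 10.90 and 10.27 in activated, and 6.27 and 6.06 in naive cells. It was 7.8-fold higher in NKT-like (log2 2.96 ± 0.38; q = 0.00018), 12.3-fold in cCD4 (q = 9.4e-05) and 21.4-fold in activated cells (q = 0.00017), the widest change of the list in the cCD4 and activated comparisons. Its naive signals lay below the median of all signals on the arrays, 6.305, so that these folds are not exact sizes. The same holds for Slc16a3 and, further below, for Pdp1 and Slc2a6. It holds in part for Aldoc and Idh1, where naive replicate 1 lay below that median. Hk1, the constitutive hexokinase, was at 10.22 to 11.24 over the 12 arrays on its brightest probe set. Its differences from naive cells, 0.49, 0.72 and 0.58 on the log2 scale in NKT-like, cCD4 and activated cells, did not pass (q = 0.031, 0.011 and 0.082). Its other probe set, 1420901_a_at, varied more, at 9.04, 7.15, 10.04, 7.69 and 9.95 in NKT-like, 7.5, 7.80 and 7.70 in cCD4, 7.84 and 6.48 in activated, and 7.04 and 6.24 in naive cells. On it every NKT-like array lay above both naive arrays, with a difference of 2.14 ± 0.72 that did not pass (q = 0.022).

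Phosphofructokinase, the committing step of glycolysis, is built from 3 subunits that behaved differently. Pfkp, the platelet-type subunit, was at 10.72, 10.43, 10.93, 10.86 and 10.02 in NKT-like, 10.48, 10.79 and 10.78 in cCD4, 11.65 and 11.04 in activated, and 9.47 and 8.52 in naive cells. It was 3.02-fold higher in NKT-like (q = 0.0013), 3.22-fold in cCD4 (q = 0.0016) and 5.10-fold in activated cells (q = 0.0014). These were 2.17-, 2.31- and 3.66-fold (q = 0.047, 0.035 and 0.018) without naive replicate 2, and without activated replicate 1 the last was 4.14-fold (q = 0.016). Pfkm, the muscle-type subunit, stayed between 7.62 and 8.06 everywhere and did not pass.

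Pfkl, the liver-type subunit, depended on the probe set. The brightest, 1439148_a_at, read 9.46, 8.45, 9.43, 9.54 and 9.20 in NKT-like, 9.58, 9.99 and 10.08 in cCD4, 11.02 and 10.34 in activated, and 8.61 and 7.22 in naive cells, with NKT-like replicate 2 below naive replicate 1. It passed in cCD4 (3.91-fold; q = 0.0028) and activated cells (6.8-fold; q = 0.0023) and not in NKT-like cells (2.46-fold; q = 0.012). Without naive replicate 2 these calls were lost (q = 0.054 and 0.024, at 2.41- and 4.20-fold), as was the cCD4 call without cCD4 replicates 2 or 3 (q = 0.014 each) and the activated call without activated replicate 1 (q = 0.024). Without naive replicate 1 the differences were 6.32- and 11.0-fold. Another probe set, 1450269_a_at, passed in activated cells alone (2.19-fold; q = 0.0067), and the remaining set, 1453541_at, was lower in cCD4 than in naive cells (log2 -0.56 ± 0.14; q = 0.0072).

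The aldolases and triose phosphate isomerase followed. Aldoa, which cleaves fructose 1,6-bisphosphate, was at 11.18, 11.08, 11.94, 11.63 and 11.21 in NKT-like, 11.33, 11.49 and 11.37 in cCD4, 11.97 and 11.65 in activated, and 10.04 and 9.40 in naive cells. It was 3.22-fold higher in NKT-like (q = 0.00029), 3.20-fold in cCD4 (q = 0.00053) and 4.26-fold in activated cells (q = 0.00089), and the other 4 probe sets passed in the same direction in all 3 comparisons. Each q-value was 0.013 without naive replicate 2, and the activated call was also lost without activated replicate 1 (q = 0.01, just over the threshold). Aldoc, the brain-type isoform, had its highest mean in NKT-like cells, where it read 8.14, 8.37, 9.14, 9.11 and 7.35, against 8.26, 7.55 and 7.88 in cCD4, 7.77 and 7.16 in activated, and 6.11 and 6.62 in naive cells. It passed in NKT-like cells (4.16-fold; q = 0.0027), though not with either naive array left out (q = 0.035 and 0.027), and did not pass in cCD4 (q = 0.016) or activated cells (q = 0.14).

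Tpi1, which interconverts the 2 triose phosphates, separated all 4 groups. Its signals were 10.93, 10.36, 10.18, 10.96 and 10.37 in NKT-like, 11.39, 11.69 and 11.69 in cCD4, 12.49 and 12.07 in activated, and 8.54 and 8.28 in naive cells. No array of a group reached into another group. Against naive cells it was 4.44-fold higher in NKT-like (log2 2.15 ± 0.22; q = 4.2e-05), 9.06-fold in cCD4 (q = 5.9e-06) and 14.6-fold in activated cells (q = 9e-06), and all 3 probe sets passed in each comparison.

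**Figure D2:**
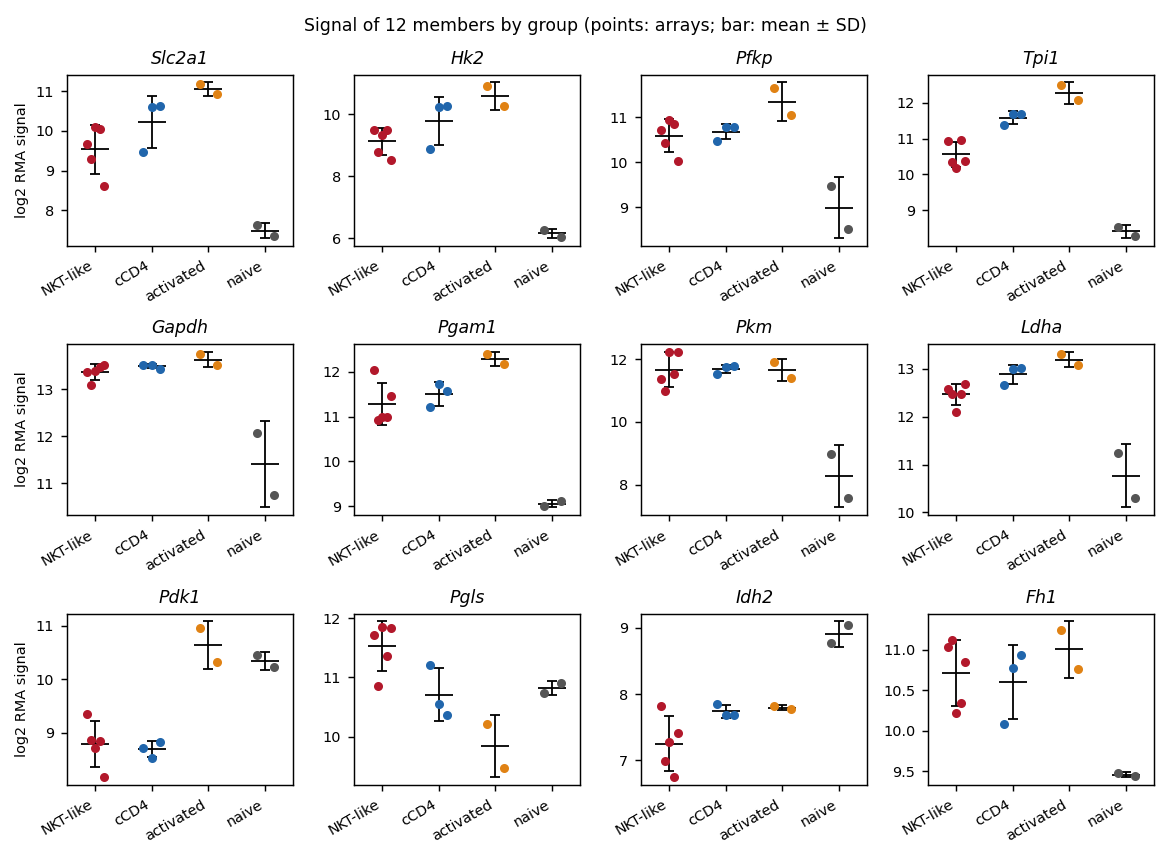
Signal of 12 genes on each array (points, log2 RMA signal) with the mean and SD of each group (bars); n = 5 NKT-like, 3 cCD4, 2 activated and 2 naive, and each panel has its own scale. Hk2, Tpi1, Pgam1 and Pkm lie at least 1 unit above the naive arrays in all stimulated groups, Pdk1 is high in activated and naive cells, and Pgls is highest in NKT-like cells.

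The bifunctional enzymes that set the level of fructose 2,6-bisphosphate, the allosteric activator of phosphofructokinase, did not pass in any comparison. Pfkfb3 read 7.24, 7.31, 7.27, 7.28 and 7.32 in NKT-like, 6.61, 7.48 and 7.59 in cCD4, 8.76 and 7.75 in activated, and 7.08 and 6.51 in naive cells. The activated arrays were above all others, with a difference from naive cells of 1.46 ± 0.35 on the log2 scale (q = 0.014). Pfkfb4 stayed between 6.49 and 6.96 on all arrays.

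The lower part of glycolysis had 4 of 5 measured genes higher in each comparison with naive cells. Gapdh oxidizes glyceraldehyde 3-phosphate and is often used as a loading standard. It was at 13.35, 13.09, 13.38, 13.46 and 13.51 in NKT-like, 13.51, 13.50 and 13.43 in cCD4, 13.74 and 13.51 in activated, and 12.06 and 10.76 in naive cells. It was 3.86-fold higher in NKT-like (q = 0.00022), 4.20-fold in cCD4 (q = 0.00027) and 4.64-fold in activated cells (q = 0.0011). With naive replicate 2 left out these were 2.45-, 2.68- and 2.95-fold, and with naive replicate 1 left out 6.06-, 6.59- and 7.31-fold; the activated call was lost only without activated replicate 1 (q = 0.012). Gapdh was named alone only by control probe sets of the array, of which the 3′ set is given here. The middle and 5′ sets passed in the same direction.

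Pgk1, which makes the first ATP of the pathway, was at 13.30, 13.37, 12.81, 13.22 and 12.96 in NKT-like, 13.49, 13.77 and 13.67 in cCD4, 13.91 and 14.0 in activated, and 11.95 and 12.46 in naive cells. Here too the 4 groups did not overlap. It was 1.91-fold higher in NKT-like (q = 0.0016), 2.71-fold in cCD4 (q = 0.00022) and 3.37-fold in activated cells (q = 0.00044), and the NKT-like call was lost without naive replicate 1 (q = 0.030). The differences were larger on 1417864_at, with means of 12.67, 13.13 and 13.37 in the same order and 10.76 in naive cells. On 1439435_x_at the means were 10.19, 10.69, 11.02 and 9.17. Pgam1, phosphoglycerate mutase, read 12.04, 10.92, 11.00, 11.00 and 11.46 in NKT-like, 11.21, 11.74 and 11.57 in cCD4, 12.40 and 12.17 in activated, and 9.0 and 9.12 in naive cells. It was 4.69-fold higher in NKT-like (q = 0.00011), 5.45-fold in cCD4 (q = 0.00012) and 9.36-fold in activated cells (q = 0.00014).

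Pkm, the pyruvate kinase gene that makes the M1 and M2 isoforms, rose in the 3 stimulated populations to group means of 11.66, 11.69 and 11.65. Its signals were 11.37, 10.97, 12.23, 11.54 and 12.21 in NKT-like, 11.54, 11.76 and 11.77 in cCD4, 11.90 and 11.40 in activated, and 8.98 and 7.57 in naive cells. The fold was 10.5 in NKT-like (log2 3.39 ± 0.39; q = 8.8e-05), 10.7 in cCD4 (q = 0.00016) and 10.4 in activated cells (q = 0.001). The size depended on which naive array was kept: 6.41-, 6.54- and 6.36-fold without replicate 2, against 17.0-, 17.4- and 16.9-fold without replicate 1. In activated cells q was 0.011 without naive replicate 2 and 0.012 without activated replicate 1. The single probe set does not tell M1 from M2. Eno2, the neuronal enolase, was at 4.5 to 4.55 in NKT-like cells and had group means of 4.52 to 4.60, and was the only gene of the list that reached the array-wide median signal of 6.305 in no group.

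Of the lactate dehydrogenase subunits, Ldha was higher in all stimulated cells and Ldhb depended on the probe set. Ldha, the muscle-type subunit that favors lactate production, was at 12.59, 12.48, 12.09, 12.48 and 12.69 in NKT-like, 12.66, 12.99 and 13.01 in cCD4, 13.31 and 13.08 in activated, and 11.24 and 10.30 in naive cells. It was 3.25-fold higher in NKT-like (log2 1.70 ± 0.23; q = 0.00024), 4.35-fold in cCD4 (q = 0.00011) and 5.38-fold in activated cells (q = 0.00031).

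Ldhb, the heart-type subunit, has 4 probe sets. The brightest, 1416183_a_at, ran from 8.02 to 8.10 in NKT-like, from 8.26 to 8.49 in cCD4, from 8.22 to 8.50 in activated and from 8.01 to 8.07 in naive cells, and it passed in no comparison. The other 3 were all lower in NKT-like than in cCD4 cells. For 1434499_a_at the signals were 4.63, 4.92, 4.73, 4.73 and 4.13 in NKT-like and 6.62, 7.22 and 7.19 in cCD4 cells, beside 5.90 and 4.90 in activated and 5.28 and 4.88 in naive cells. On it NKT-like cells were lower than cCD4 cells (log2 -2.38 ± 0.25; q = 2e-04), and cCD4 cells were higher than naive cells (log2 1.93; q = 0.00063). The NKT-like and naive signals lay below the median of all signals, 6.305, and near those of Eno2, so that no fold is given. On 1448237_x_at and 1455235_x_at the differences of NKT-like from cCD4 cells were -0.92 and -0.74 on the log2 scale (q = 0.0038 and 0.0076). The Ldhb result outside the brightest probe set was singled out after its values were seen.

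**Figure D3:**
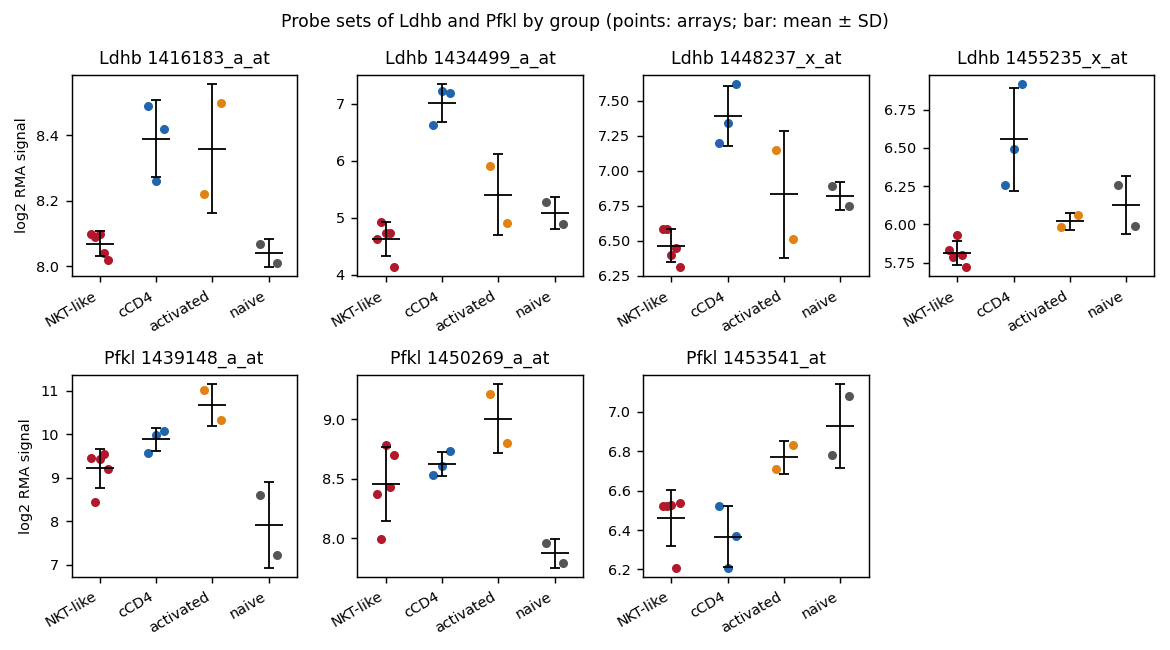
Signal of the 4 Ldhb and the 3 Pfkl probe sets on each array (points, log2 RMA signal), with group mean and SD (bars); n = 5 NKT-like, 3 cCD4, 2 activated and 2 naive, and each panel has its own scale. In every Ldhb panel the 5 NKT-like arrays lie below the 3 cCD4 arrays; Pfkl 1453541_at runs opposite to the other Pfkl sets, with naive cells at 6.78 and 7.08.

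Pdk1 is 1 of the kinases that shut the pyruvate dehydrogenase complex and so keep pyruvate out of the TCA cycle. It was low in both bead-expanded populations and high in activated and naive cells. It read 9.36, 8.86, 8.72, 8.85 and 8.18 in NKT-like, 8.72, 8.54 and 8.84 in cCD4, 10.95 and 10.32 in activated, and 10.46 and 10.23 in naive cells. No NKT-like or cCD4 array reached the lowest activated or naive array. Relative to naive cells it was 2.93-fold lower in NKT-like (log2 -1.55 ± 0.26; q = 0.00084) and 3.12-fold lower in cCD4 cells (log2 -1.64 ± 0.28; q = 0.001). Relative to activated cells it was 3.57-fold lower in NKT-like (q = 0.0014) and 3.81-fold lower in cCD4 cells (q = 0.003). Activated and naive cells differed by 0.29 ± 0.31 (q = 0.40). Of the other kinases, Pdk3 ran the other way, at 9.18 to 10.10 in NKT-like and 9.60 to 9.85 in cCD4 cells. Its activated arrays read 10.17 and 9.40 and its naive arrays 8.86 and 9.10. Pdk2 and Pdk4 were dim, with group means of 5.61 to 6.20 and 4.06 to 4.37. None of these other kinases passed relative to naive cells.

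All 4 Pdk1 probe sets were called lower in NKT-like and in cCD4 cells than in naive cells, at log2 -2.52, -1.55, -0.87 and -2.04 in NKT-like cells. With naive replicate 1 or 2 left out the brightest set had q = 0.014 and 0.014 in NKT-like and 0.012 and 0.011 in cCD4 cells, at unchanged direction. The call of cCD4 against activated cells was lost without cCD4 replicates 2 or 3 or either activated array (q = 0.019, 0.012, 0.01 and 0.011). Pdha1, the alpha subunit of the E1 enzyme of the complex, spanned 9.90 to 10.90 over all arrays and did not pass on its brightest probe set. Its other probe set, 1449137_at, was higher in NKT-like (log2 1.02; q = 0.0053) and activated cells (log2 1.40; q = 0.0074).

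In the pentose phosphate pathway, which supplies NADPH and ribose, 2 of 5 measured genes were higher in each comparison with naive cells. Pgd, the second NADPH-producing dehydrogenase, was at 11.02, 11.33, 10.88, 11.11 and 10.62 in NKT-like, 10.80, 11.84 and 11.98 in cCD4, 11.96 and 11.64 in activated, and 9.65 and 9.66 in naive cells. It was 2.53-fold higher in NKT-like (q = 0.0028), 3.69-fold in cCD4 (q = 0.00072) and 4.43-fold in activated cells (q = 0.0019), on all 4 probe sets. Without naive replicate 2 the q-values were 0.046, 0.012 and 0.020; without naive replicate 1 those of NKT-like and activated cells were 0.025 and 0.013, and without activated replicate 1 the call in activated cells had q = 0.019.

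Tkt, transketolase, was at 12.69, 12.92, 12.39, 12.73 and 12.46 in NKT-like, 12.42, 12.98 and 13.00 in cCD4, 13.07 and 12.80 in activated, and 11.90 and 11.96 in naive cells. On this brightest probe set the change was small, 1.63-fold in NKT-like (q = 0.0074), 1.82-fold in cCD4 (q = 0.0045) and 2.00-fold in activated cells (q = 0.0089). It was larger on 1451015_at, with means of 11.28 in NKT-like, 10.87 in cCD4 and 11.03 in activated cells. The naive arrays read 10.04 and 8.70 there. The remaining set, 1436605_at, was dim, with group means of 5.54 to 5.64. The calls on the brightest probe set were fragile: with either naive array left out q lay between 0.031 and 0.077 in all 3. The NKT-like call was also lost without NKT-like replicates 1, 2 or 4 (q = 0.016, 0.013 and 0.017), the cCD4 call without cCD4 replicates 2 or 3 (q = 0.023 and 0.021), and the activated call without activated replicate 1 (q = 0.066), NKT-like replicates 1, 4 or 5 (q = 0.015, 0.014 and 0.012) or cCD4 replicates 2 or 3 (q = 0.013 and 0.012). Taldo1, transaldolase, and Rpia, ribose 5-phosphate isomerase, passed in no comparison; their largest differences from naive cells were 0.78 in cCD4 cells (q = 0.028) and 0.55 in NKT-like cells (q = 0.013).

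Pgls, the lactonase between the 2 dehydrogenases, had its highest mean in NKT-like cells and its lowest in activated cells. It was at 11.72, 10.86, 11.85, 11.37 and 11.84 in NKT-like, 11.21, 10.55 and 10.37 in cCD4, 10.21 and 9.47 in activated, and 10.74 and 10.91 in naive cells. The lowest NKT-like array was above both activated arrays, which were the lowest of all. NKT-like cells were 3.22-fold higher than activated cells (log2 1.69 ± 0.30; q = 0.0052), whereas the differences from naive cells, 0.70 in NKT-like, -0.12 in cCD4 and -0.98 in activated cells, did not pass (q = 0.049, 0.34 and 0.074). The call against activated cells was lost without NKT-like replicates 1, 3, 4 or 5 (q = 0.011 to 0.012), cCD4 replicate 2 (q = 0.01, just over the threshold) or activated replicate 2 (2.5-fold; q = 0.078).

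In the TCA cycle, counted with the NADP-dependent isocitrate dehydrogenases and the cytosolic Mdh1, 1 gene was higher and 1 lower of 9 in NKT-like cells, 4 higher and 1 lower in cCD4 cells, and 1 higher in activated cells, each against naive cells. Fh1, fumarate hydratase, was the gene higher in all 3. It was at 11.04, 11.12, 10.22, 10.35 and 10.85 in NKT-like, 10.08, 10.78 and 10.94 in cCD4, 11.25 and 10.76 in activated, and 9.48 and 9.44 in naive cells. The differences were 2.39-fold in NKT-like (q = 0.0042), 2.21-fold in cCD4 (q = 0.01) and 2.92-fold in activated cells (q = 0.0098). With naive replicate 1 left out q was 0.031, 0.045 and 0.046, and with naive replicate 2 left out 0.064, 0.080 and 0.074. The cCD4 and activated calls lay at the threshold and were also lost without NKT-like replicates 1, 2, 4 or 5 (q = 0.01 to 0.015) or cCD4 replicates 2 or 3 (q = 0.042 each in cCD4, 0.016 and 0.012 in activated cells), the activated call also without activated replicate 1 (q = 0.078).

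Idh2, the mitochondrial NADP-dependent isocitrate dehydrogenase, was the only TCA gene that was lower. It was at 7.82, 6.99, 7.28, 6.75 and 7.42 in NKT-like, 7.85, 7.69 and 7.68 in cCD4, 7.82 and 7.77 in activated, and 8.77 and 9.04 in naive cells. Every stimulated array was below both naive arrays. It was 3.15-fold lower in NKT-like (log2 -1.65 ± 0.23; q = 0.00026) and 2.24-fold lower in cCD4 cells (log2 -1.17 ± 0.25; q = 0.0031), and the difference of -1.11 ± 0.27 in activated cells did not pass (q = 0.015). The NKT-like call had q = 0.011 without naive replicate 2. The cCD4 call was lost without either naive array (q = 0.013 and 0.048) or without cCD4 replicates 2 or 3 (q = 0.015 and 0.014).

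A further 3 genes passed against naive cells in cCD4 cells alone. Cs, citrate synthase, which admits acetyl groups to the cycle, was at 10.91, 11.28, 10.72, 11.11 and 10.80 in NKT-like, 11.20, 11.65 and 11.73 in cCD4, 11.40 and 10.95 in activated, and 10.28 and 10.65 in naive cells (2.08-fold in cCD4; q = 0.0027). On its other 2 probe sets Cs passed in all 3 comparisons. Idh1, the cytosolic NADP enzyme, was 1.88-fold higher in cCD4 cells (q = 0.0047), with cCD4 arrays at 6.74, 7.47 and 7.47 and naive arrays at 6.26 and 6.37. Mdh1, the cytosolic malate dehydrogenase, was 2.06-fold higher in cCD4 cells (q = 0.0092), with cCD4 arrays at 11.63, 12.25 and 12.32 and naive arrays at 11.23 and 10.81, while its probe set 1438338_at was lower in cCD4 (log2 -0.73; q = 0.0018) and NKT-like cells (log2 -0.76; q = 9e-04). None of the 3 genes was called different between NKT-like and cCD4 cells. The 3 cCD4 calls were lost without either naive array (q = 0.013 to 0.12) and without cCD4 replicates 2 or 3 (q = 0.014 to 0.040), and that of Mdh1 also without NKT-like replicates 1, 4 or 5 (q = 0.012 to 0.014).

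The other 4 TCA genes did not pass on their brightest probe sets. These were Idh3a, a subunit of the NAD-dependent isocitrate dehydrogenase, Ogdh and Sucla2 of the next 2 steps, and the mitochondrial malate dehydrogenase Mdh2. The differences of Mdh2 were 0.48 in NKT-like, 0.53 in cCD4 and 0.68 in activated cells (q = 0.017, 0.018 and 0.024), and its other probe set, 1416478_a_at, passed in all 3 at 1.24, 1.13 and 1.17 on the log2 scale. Ogdh overlapped naive cells in every group; its naive arrays read 8.42 and 7.01. Idh3a differed by 1.15 ± 0.32 in activated cells (q = 0.026), and its probe set 1447701_x_at was lower in cCD4 cells (log2 -0.79; q = 0.0036).

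**Figure D4:**
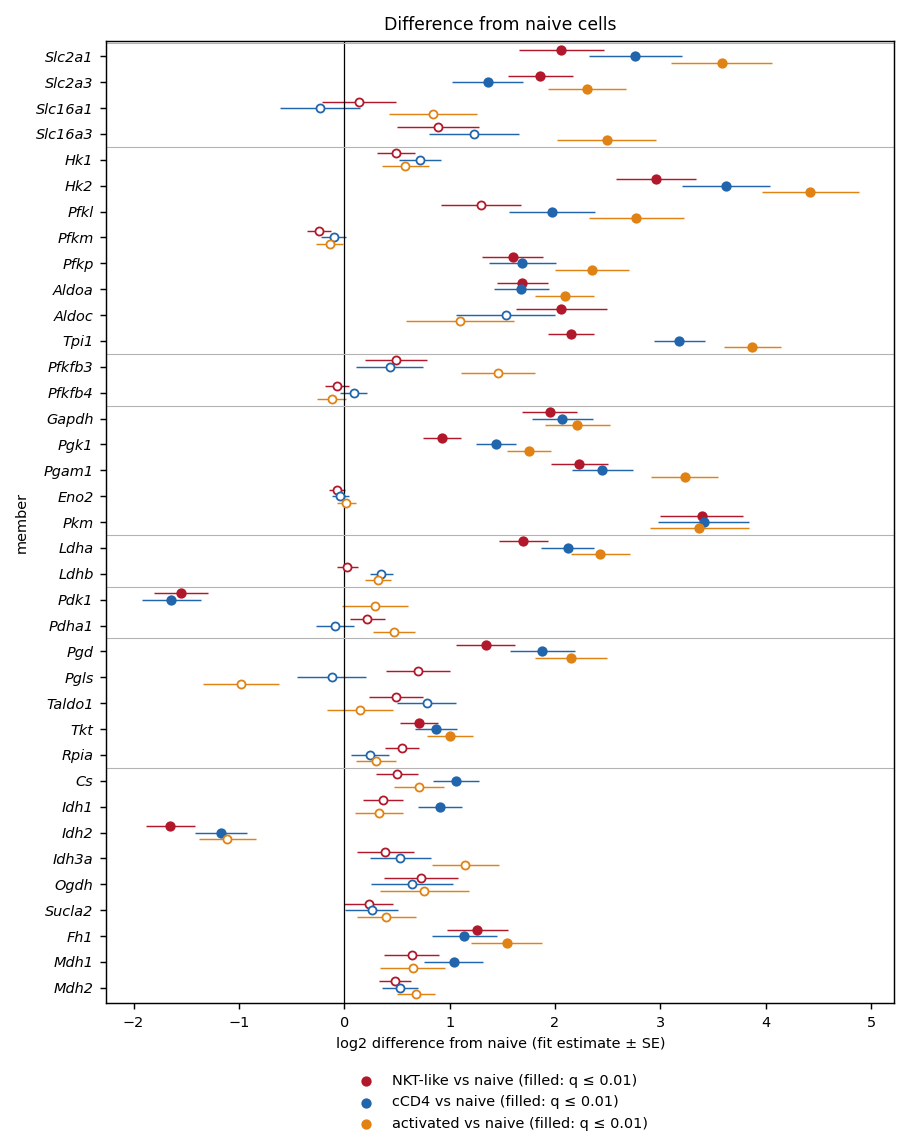
Log2 difference from naive cells of the 37 genes (points, fit estimate; lines, ± SE) in NKT-like (red), cCD4 (blue) and activated cells (orange); filled points have q of 0.01 or less. Hk2 reaches 2.96, 3.62 and 4.42 and Pkm 3.39, 3.41 and 3.37, while the TCA genes other than Idh2 lie between 0.23 and 1.54, and Idh2 lies at -1.65, -1.17 and -1.11.

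Between NKT-like and cCD4 cells, which were expanded alike, a single gene passed. Tpi1 was 2.04-fold lower in NKT-like cells (log2 -1.03 ± 0.19; q = 0.0098), and none was higher; by comparison 1.85% of all genes were lower and 1.24% higher. At an unadjusted p under 0.05, 7 genes were lower and 1 was higher. The NKT-like arrays lay entirely below the cCD4 arrays in 4 genes, against 8.26% of all genes, and entirely above in 1, against 6.6%. Tpi1 was among the 4, but its call was at the threshold. It was lost without NKT-like replicates 2, 3 or 5 (q = 0.023, 0.019 and 0.027), any cCD4 array (q = 0.015, 0.057 and 0.060) or either naive array (q = 0.016 each), and its other probe sets had differences of -0.93 and -1.19 with q = 0.035 and 0.016. The median difference of the 37 genes was -0.14, beside -0.00 over all genes.

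Activated cells had the highest group mean in 24 of the 37 genes, cCD4 cells in 8, NKT-like cells in 3 (Aldoc, Pgls and Rpia) and naive cells in 2 (Pfkm and Idh2), and naive cells had the lowest in 29. Relative to activated cells, Tpi1 of NKT-like cells (3.29-fold; q = 0.00077) and Pdk1 were lower and Pgls was higher, against 1% of all genes lower and 3.36% higher. The NKT-like arrays lay entirely below the activated arrays in 16 of the 37 genes, against 10.6% of all genes, and entirely above in 1, against 12.7%. At an unadjusted p under 0.05, 15 genes were lower and 2 were higher. Differences below 0 that did not pass included those of Slc2a1 (log2 -1.51 ± 0.40; q = 0.029), Slc16a3 (-1.60 ± 0.39; q = 0.022), Hk2 (-1.45 ± 0.38; q = 0.029), Pgk1 (-0.82 ± 0.18; q = 0.012, though its probe set 1439435_x_at passed at -0.83 with q = 0.0076) and Pgam1 (-1.0 ± 0.27; q = 0.033). Pkm differed by 0.01 with a 95% interval of -0.85 to 0.88. The median difference of the list was -0.29, beside -0.04 over all genes. The summed signal of the proliferation genes was 12.94 to 13.85 in NKT-like against 14.13 to 14.48 in activated arrays, while 1 of the 6 genes, Pcna, was called lower (log2 -0.83; q = 0.0087) and 5 did not pass; its part in the result was not tested.

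Between cCD4 and activated cells only Pdk1 passed, lower in cCD4 cells, against 0.319% of all genes lower and 1.53% higher. The cCD4 arrays lay entirely below the activated arrays in 17 genes, against 8.87% of all genes, and entirely above in 1, against 15.5%. At an unadjusted p under 0.05, 8 genes were lower and 3 were higher. Here the proliferation genes overlapped, at 14.39 to 14.53 in cCD4 and 14.13 to 14.48 in activated cells. The median difference was -0.15, beside -0.02 over all genes. With 2 activated arrays, the interval of a difference was wide for most genes, and a difference that did not pass is not shown to be absent.

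**Figure D5:**
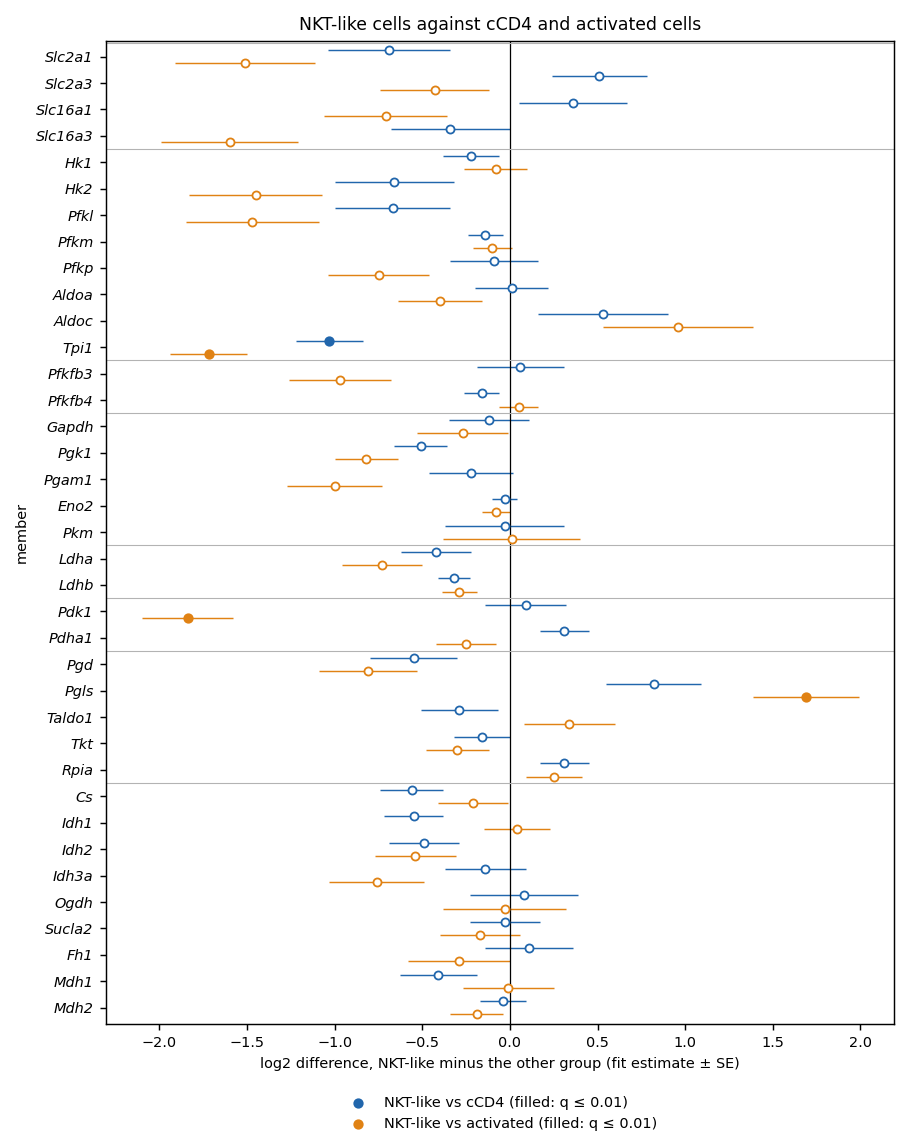
Log2 difference of NKT-like minus cCD4 cells (blue) and NKT-like minus activated cells (orange) for the 37 genes (points, fit estimate; lines, ± SE); filled points have q of 0.01 or less. Orange points lie right of 0 in 7 of 37 genes, with Pdk1 at -1.84 and Tpi1 at -1.72, and Pgls lies farthest right at 1.69.

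The 5 NKT-like cultures varied among themselves. The SD over cultures had a median of 0.34 log2 units over the 37 genes, and 10 genes spanned more than 1 unit. The widest were Slc16a3 (5.96 to 7.80), Aldoc (7.35 to 9.14) and Slc2a1 (8.61 to 10.09). NKT-like replicate 5 had the lowest signal of the 5 cultures in Slc2a1, Hk2, Pfkp, Aldoc, Pdk1, Pgd, Pfkfb4, Ldhb, Taldo1, Rpia and Idh1. It was among the highest in other genes, such as Pkm, Gapdh, Ldha and Ogdh. On this array the gap between the 3′ and 5′ control probe sets of Gapdh was 0.12, against 1.28 to 1.73 in the other cultures. Its part in these differences was not tested. Pfkfb3, Ldhb and Eno2 had the narrowest ranges over cultures, 0.08, 0.08 and 0.05.

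Beyond the listed genes, 49 further genes of the same pathways were taken by role, of which 44 had a probe set. In NKT-like cells 9 were higher than in naive cells and none was lower, in cCD4 cells 9 and none, and in activated cells 4 and none (3, 3 and 4 were lower at an unadjusted p under 0.05). The shares higher were 20.5%, 20.5% and 9.09%, against 10.7%, 11.6% and 4.44% of all genes. Of all genes 6.86%, 5.64% and 2.79% were lower. The median log2 differences of the 44 genes were 0.23, 0.27 and 0.35. Of the further glycolysis genes 1 of 14 (7.14%) was higher in each comparison with naive cells. Of the further TCA genes 4 of 10 were higher in NKT-like, 4 of 10 in cCD4 and 2 of 10 in activated cells. Sdhd, a membrane anchor of succinate dehydrogenase, was at 10.65, 10.94, 10.48, 10.87 and 11.00 in NKT-like, 10.85, 11.26 and 11.33 in cCD4, 11.19 and 10.79 in activated, and 9.63 and 8.74 in naive cells. It was 3.03-, 3.89- and 3.49-fold higher in the 3 populations (q = 0.0004, 0.00021 and 0.0019), and Sdhb, the iron-sulfur subunit, was 2.27-, 2.38- and 2.09-fold higher (q = 0.00027, 0.00034 and 0.0042). Without naive replicate 2 the NKT-like and activated calls of both were lost (q = 0.012 to 0.054), as were the activated calls without activated replicate 1 (q = 0.020 and 0.037).

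Among the other genes of the same pathways, Rpe, the ribulose phosphate epimerase, was 3.22-fold higher in NKT-like and 2.85-fold in cCD4 cells than in naive cells (q = 0.00016 and 0.00057). Pcx, pyruvate carboxylase, which refills the TCA cycle from pyruvate, was at 8.50, 8.30, 7.82, 7.99 and 8.41 in NKT-like, 7.19, 7.58 and 7.73 in cCD4, 6.72 and 6.98 in activated, and 6.63 and 6.54 in naive cells. It was 3.07-fold higher in NKT-like cells relative to naive cells (q = 0.00012), 1.88-fold in cCD4 cells (q = 0.0051; q = 0.023 to 0.056 without cCD4 replicates 2 or 3 or either naive array), and in NKT-like cells 2.56-fold higher than in activated cells (q = 0.0015; q = 0.01, just over the threshold, and 0.013 without activated replicates 1 and 2). Pdp1, a phosphatase that reactivates pyruvate dehydrogenase and so opposes its kinases, was at 7.78, 7.58, 7.49, 8.29 and 7.31 in NKT-like, 6.83, 7.22 and 7.32 in cCD4, 6.95 and 6.19 in activated, and 6.23 and 6.19 in naive cells. It was 2.78-fold higher in NKT-like cells relative to naive cells (q = 0.0011; q = 0.013 and 0.027 without naive replicates 1 and 2), and did not pass in cCD4 (q = 0.017) or activated cells (q = 0.35). The other phosphatase, Pdp2, had means of 7.47 in NKT-like, 7.42 in cCD4, 7.80 in activated and 7.45 in naive cells. It did not pass relative to naive cells.

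Mpc1, a subunit of the mitochondrial pyruvate carrier, was 2.72-fold higher in cCD4 than in naive cells (q = 0.00073; q = 0.016 without naive replicate 2). Dld, a subunit shared by the pyruvate and 2-oxoglutarate dehydrogenases, was 2.84-fold higher in cCD4 and 3.67-fold in activated cells (q = 0.007 and 0.0098). The Dld calls were lost without naive replicate 2 (q = 0.12 each), NKT-like replicates 1, 4 or 5 (q = 0.01 to 0.016) or cCD4 replicates 2 or 3 (q = 0.013 to 0.033), and the activated call also without activated replicate 1 (q = 0.086), naive replicate 1 (q = 0.01) or NKT-like replicate 2 (q = 0.013). Eno3, the muscle enolase, was 4.64-fold higher in activated than in naive cells (q = 0.0011; q = 0.015 without naive replicate 2) and 2.12-fold in NKT-like cells (q = 0.0055). That NKT-like call was lost without NKT-like replicates 1, 2 or 5 (q = 0.011 each) or either naive array (q = 0.028 and 0.093). The only gene of this group that passed between NKT-like and cCD4 cells was Slc2a6, a transporter of the glucose transporter family, at 6.3, 6.12, 6.78, 6.11 and 6.40 in NKT-like cells against 7.46, 7.55 and 7.66 in cCD4 cells (log2 -1.22 ± 0.14; q = 0.00057). It was also 2.64-fold higher in cCD4 than in naive cells (q = 0.00018), where it read 6.10 and 6.22, below the median of all signals.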

How the data were processed

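Each of the 12 T cell RNA samples was hybridized to 1 Affymetrix mouse genome array. The authors deposited log2 values that they had made with RMA, which corrects background, applies quantile normalization and summarizes each probe set; its version is not stated in the labels or methods used here. Values are relative, so the number of arrays limits the precision. No further scaling was applied.

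Probe sets were named from the platform annotation: 34948 had 1 gene symbol, 932 several and 9160 none. All 45040 probe sets were tested, including 3 Gapdh controls, which alone name Gapdh, and 61 other controls were left out. A linear model of all arrays, with 1 mean for each of the 4 groups in the sample titles, was fitted in limma 3.58.1 (R 4.3.3) without a replicate block, with 8 residual and 3.031 prior degrees of freedom, and gave 6 pairwise comparisons. Storey q-values were computed by code written for this work and tested on simulated data with known changes; a gene was called at q of 0.01 or less at any fold size, as in the study's methods. Folds are 2 to the power of the log2 difference. Every listed gene may be named. Of the further pathway genes, up to 4 with the largest called difference per comparison with naive cells and between NKT-like and cCD4 cells are named. None was called lower than in naive cells, and those that were lower without a call are not all named. Pdk2, Pdk3, Pdk4 and Pdp2 were added after their values were seen. Of the marker lists (T cell, CD8, CD4, B cell, red cell precursor, myeloid and proliferation genes), Cd8a, Cd4 and genes of lists whose summed level differs are named; Cd5 was added after its values were seen. The members and lists were chosen with earlier results of these data known. Promoters are RefSeq windows of 300 bases in GRCm38.p6, which 38 of the 40 genes have; both strands were searched. Alternatives were adjustment, dim filter, normalization, probe set choice, variance prior, pairs fitted alone, a replicate block and each array left out. Mouse age and the amount of RNA labelled differ between the labels and the study's text, which was not settled.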

Additional observations from a re-analysis of the deposited data

Results flagged for a closer look

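Among the 5 NKT-like cultures, Pdha1 of replicate 2 stood apart at 10.72, where the other 4 cultures lay between 10.39 and 10.46. It was the only 1 of 37 genes with such a sample, and chance alone marks about 1 in 20 groups. The cause was not tested. Pdha1 passed in no comparison on this probe set with all 5 cultures.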

How the results depend on the processing

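Outside the left-out arrays, 172 counts of called genes stayed within 1.5 times of their value and 44 moved; the cause of the moves was not tested. For the listed genes relative to naive cells, the number higher was 15 in NKT-like, 18 in cCD4 and 16 in activated cells; with the replicate number as a block it was 5 and 10 in NKT-like and cCD4 cells, and with each pair of groups fitted alone 4 in activated cells. The number lower was 1 in cCD4 cells with the block, 1 in NKT-like cells when gene-specific probe sets were preferred, and 1 in activated cells with the dim filter or quantile normalization. Relative to activated cells, NKT-like cells had 0 higher with pairs alone or the block, and the number lower was 1 with pairs alone, 0 with the block and 4 with quantile normalization or the mean of all probe sets; cCD4 cells had 0 lower with pairs alone. Between NKT-like and cCD4 cells the number lower was 0 with pairs alone, the block, Benjamini-Hochberg adjustment, median centring or a trended robust prior, and 2 with the mean of all probe sets.

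Of the further pathway genes, the number higher than in naive cells was 1 in NKT-like, 3 in cCD4 and 1 in activated cells with the block, 5 in cCD4 cells with Benjamini-Hochberg adjustment, and 0 and 7 in activated cells with pairs alone and quantile normalization; in NKT-like cells the number lower was 1 with pairs alone or the trended robust prior and 2 with the mean of all probe sets. NKT-like cells relative to activated cells had 1 higher with pairs alone, quantile normalization or the trended prior and 0 with the block, and 1 lower with the dim filter or quantile normalization. cCD4 cells relative to activated cells had 0 higher with pairs alone, quantile normalization, the trended prior or the block, and 1 lower with the dim filter or quantile normalization. Between NKT-like and cCD4 cells there were 1 higher and 2 lower with quantile normalization and 0 lower with the block. Deviations of same-numbered arrays from their group means correlated at -0.50 to 0.28. In a group of 2 arrays these deviations mirror each other, so the correlations could not show whether the replicate numbers pair the samples. The only called values that turned were those of Pfkl with gene-specific probe sets, at -0.16 in activated and -0.56 in cCD4 cells on the log2 scale relative to naive cells.

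With each array left out in turn, the listed genes higher than naive ranged from 7 to 16 in NKT-like, 7 to 20 in cCD4 and 6 to 18 in activated cells, and those lower from 0 to 2, 0 to 2 and 0 to 1. NKT-like cells relative to cCD4 cells had 0 higher throughout and 0 to 1 lower, and relative to activated cells 0 to 1 higher and 2 to 4 lower; cCD4 cells relative to activated cells had 0 to 1 in either direction. The further pathway genes higher than naive ranged from 2 to 11 in NKT-like, 4 to 12 in cCD4 and 0 to 8 in activated cells, with 0 to 1 lower in NKT-like cells. Those higher than in activated cells ranged from 0 to 3 in NKT-like and 0 to 1 in cCD4 cells, and those lower from 0 to 1 in both.

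Leaving out naive replicate 2 and activated replicate 2 together, the arrays with the lowest spread of signals, was chosen after seeing the data. The listed genes higher than naive were then 7 in NKT-like, 8 in cCD4 and 6 in activated cells and those lower 0, 1 and 0, and no listed gene passed between the stimulated groups. Of the further pathway genes 3, 5 and 1 were higher than naive, and 0 were higher than in activated cells in either expanded group. The 2 naive and 2 activated arrays limit every comparison that uses them. A change of background correction was not run, since probe-level files were not used here.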
